A study of Mus musculus with 2 samples.

Results

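The members described here are 31 genes of integrins and leukocyte adhesion receptors, taken by symbol from the 55401 genes of the count matrix. They comprise 16 integrin alpha subunits, 8 beta subunits and 7 other receptors, namely Icam1, Icam2, Vcam1, Selplg, Cd44, Pecam1 and Cd226. Membership follows the gene's name and family, and the rule uses no measured value. CD45+ white blood cells were sorted as live cells from digested mouse lungs 7 weeks after a first dose of urethane, a carcinogen that induces lung tumours, and single cells were profiled with a droplet 3' kit. The labels name 1 WT sample and 1 Siah1a/2 KO sample, both from urethane-treated lungs, with Siah1a and Siah2 encoding ubiquitin ligases. How the knockout was made, and the age and number of the mice, are not given in the sources used here. The cell barcodes carry the endings 1 and 2, and no label ties an ending to a genotype. The groups are therefore named library 1 and library 2, no genotype is compared, and with 1 library of each kind no difference has a replicate check.

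Integrins are cell-surface receptors made of 1 alpha and 1 beta chain, which bind matrix proteins or receptors on other cells after being switched on from inside the cell. The beta-2 integrins are the leukocyte family: Itgal encodes the alpha chain of LFA-1, Itgam that of Mac-1, Itgax CD11c and Itgad CD11d. The alpha-4 chain with beta-1 binds VCAM-1, and beta-7 pairs with alpha-4 or with alpha-E, whose ligand is E-cadherin. In lung and tumours these receptors hold lymphocytes in the tissue, carry monocytes across vessel walls and, through alpha-v with beta-8, release active TGF-beta.

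Library 1 held 8522 barcodes with 86227008 UMIs (counted molecules), and library 2 held 6479 barcodes with 59459790 UMIs. After cells with under 500 genes or over 10% mitochondrial UMIs were left out, 8066 and 6113 cells remained, with a median of 8661 and 7875 UMIs. Ptprc, the gene of CD45, had a UMI in 97.4% and 97.3% of them. Between the libraries, 10 kept cells shared a barcode sequence. Cells were put into classes by UMIs of marker genes, none of them a member, so class names stand for these gates. Enough cells, at least 10 in each library, were found for 23 classes, which took 60.4% of cells in each library. Markers of more than 1 lineage were carried by 808 and 493 barcodes, which were left out, and 2386 and 1930 cells met no gate. Levels are given as CPM, the UMIs of a gene per 1000000 UMIs of its class, and are compared for 1 gene across classes, never between genes. Intervals are exact and at 95%, and they cover counting error only.

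The stretches before the start sites of 4 members are shown because these genes had contrasting patterns over the classes below: Itgam and Itgax are neighbours on 1 chromosome, Itga2b was high in mast cells, and Itga4 was above 10 CPM in every class. The sequences run 5' to 3' and hold the 250 bases before the start, from RefSeq on build GRCm38.p6. Capitals mark a match to the PU.1-type motif GAGGAAG on either strand. They likewise mark the RUNX-type motif, spelled TGTGGT and searched on both strands. The GATA-type motif was searched in the same way as AGATAA. The TATA box was searched as TATAAA, also on both strands. Itgam lies at chr7:128062390-128062639 on the plus strand, Itgax at chr7:128129300-128129549 on the plus strand, Itga2b at chr11:102469884-102470133 on the minus strand and Itga4 at chr2:79255176-79255425 on the plus strand.
Itgam: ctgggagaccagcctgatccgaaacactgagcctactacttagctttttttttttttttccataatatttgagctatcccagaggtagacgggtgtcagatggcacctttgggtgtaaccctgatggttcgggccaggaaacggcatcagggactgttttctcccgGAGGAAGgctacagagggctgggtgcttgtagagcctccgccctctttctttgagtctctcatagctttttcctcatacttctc
Itgax: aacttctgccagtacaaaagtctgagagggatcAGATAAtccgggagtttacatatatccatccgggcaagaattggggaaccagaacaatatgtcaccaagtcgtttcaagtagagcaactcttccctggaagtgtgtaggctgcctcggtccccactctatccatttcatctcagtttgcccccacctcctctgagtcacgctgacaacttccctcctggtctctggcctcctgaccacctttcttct
Itga2b: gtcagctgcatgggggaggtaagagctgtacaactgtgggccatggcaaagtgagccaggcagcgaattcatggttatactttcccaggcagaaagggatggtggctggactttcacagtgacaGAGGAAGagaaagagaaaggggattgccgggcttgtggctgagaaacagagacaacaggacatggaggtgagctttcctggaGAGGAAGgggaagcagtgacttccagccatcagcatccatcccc
Itga4: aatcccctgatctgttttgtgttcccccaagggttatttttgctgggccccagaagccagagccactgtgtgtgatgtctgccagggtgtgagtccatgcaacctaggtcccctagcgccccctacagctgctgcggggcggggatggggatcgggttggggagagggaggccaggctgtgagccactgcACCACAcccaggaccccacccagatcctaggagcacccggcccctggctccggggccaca
Among all 32851 promoters of the table, the PU.1-type motif was found in 10.6%, the RUNX-type in 14.0%, the GATA-type in 9.99% and the TATA box in 12.4%. The table had 20 entries for 18 members. Of these 20 entries, 5 held the PU.1-type motif, 2 the RUNX-type, 2 the GATA-type and 0 the TATA box. In the window of Itgam the PU.1-type match began 84 bases before the start, and in that of Itga2b there were 2 such matches, beginning 126 and 44 bases before it. The GATA-type match of Itgax began 217 bases before the start, and Itga4 held the RUNX-type motif on the other strand, 60 bases before it. A match describes letters only.

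At least 10 CPM in both libraries of a class was reached by 26 of the 31 members. The 5 others were Itgb6, with 0 UMIs in both libraries (a count of 0 allows up to 3 UMIs, or 0.0348 CPM of library 1 and 0.0505 CPM of library 2), Itga7 with 14 and 11 UMIs over all barcodes, Itgb4 with 20 and 15, Itga8 with 79 and 51, and Itga3 with 104 and 88. Itgb4 and Itgb6 are chains of epithelial integrins. Of the 26, 6 were at that level in all 23 classes (Itga4, Itgb1, Itgb2, Itgb7, Selplg and Cd44) and 7 in 5 classes or fewer (Itga2, Itga2b, Itga9, Itgad, Itgae, Itgb8 and Vcam1). The highest class was the same in both libraries for 20 of the 26, and for 16 both libraries of the highest class lay above both of the next. No share over all genes stands beside these counts or those of the steps that follow, so they describe the members only. Further down the order most neighbouring classes overlapped: of the 22 steps between neighbours, those where both libraries of a class lay above both of the next numbered 10 for Itgal, 8 for Itgb5 and Pecam1, 7 for Icam1 and 6 or fewer for the other members.

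**Figure D1:**
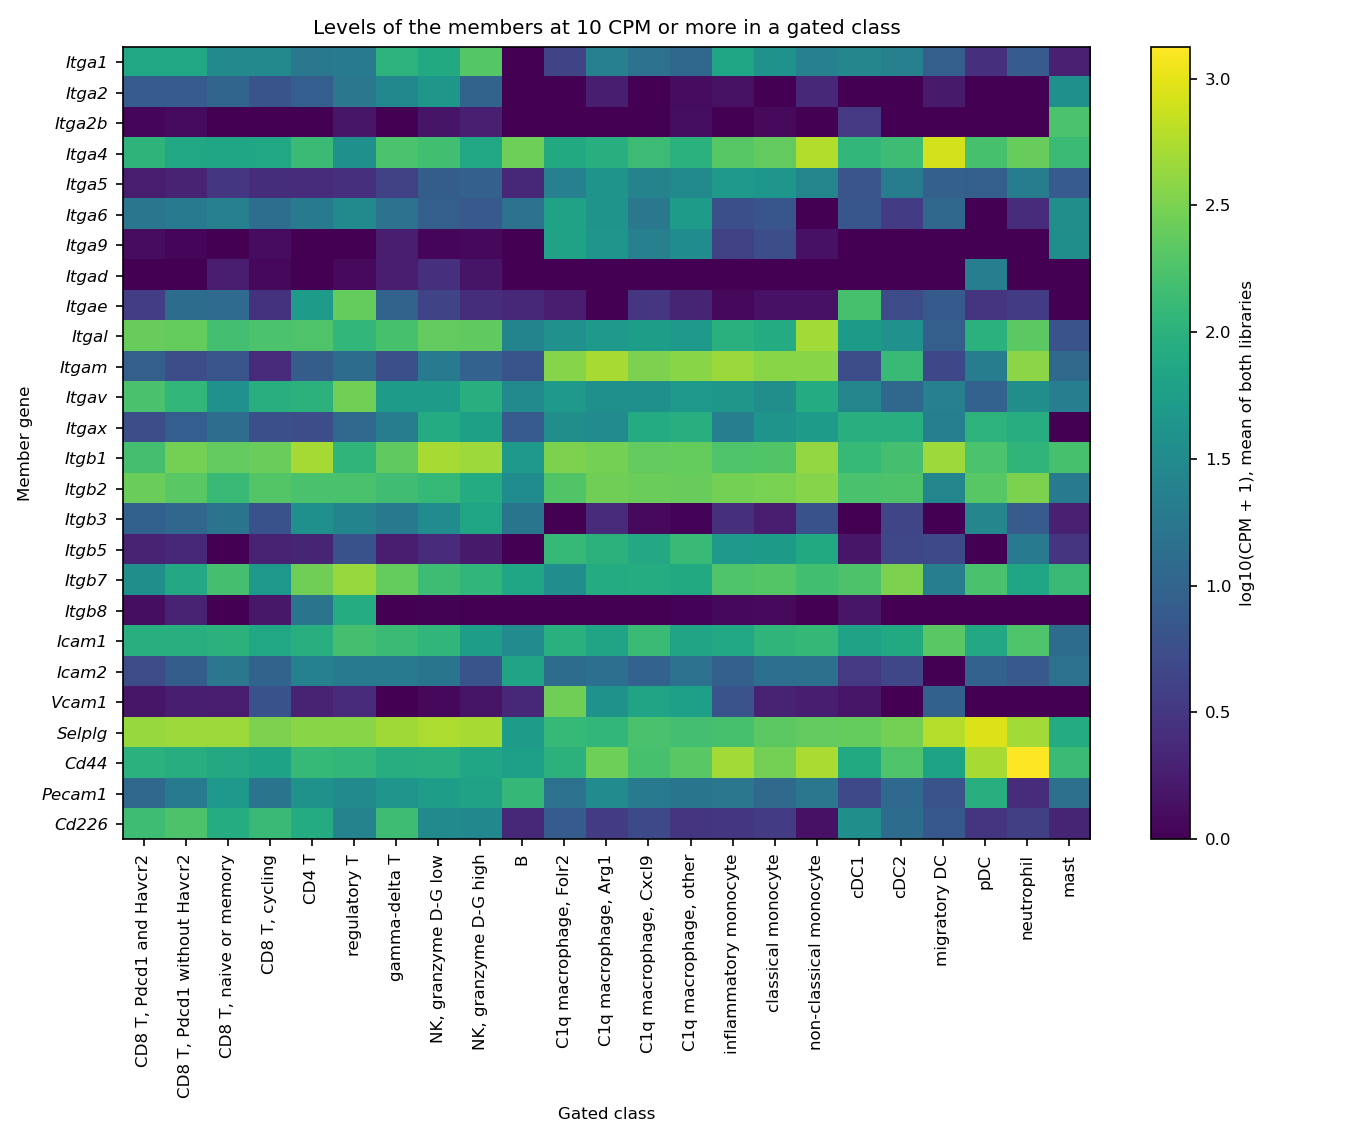
Heat map of the 26 members at 10 CPM or more in a class: rows are genes, columns the 23 gated classes, and colour is log10(CPM + 1) of the mean of both libraries. Itgb8 stands out in regulatory T cells, Itgae in these and in cDC1, Itga2b in mast cells, and Vcam1 in Folr2 macrophages, while Itgb1, Itgb2, Selplg and Cd44 are coloured in every column.

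In regulatory T cells, gated by CD3 genes and Foxp3, 4 integrin genes at 10 CPM or more had their highest mean of both libraries: Itgae, Itgb7, Itgav and Itgb8. Itgae was at 213 CPM (195.8 to 231.7) in library 1 and 266 CPM (238.9 to 294.5) in library 2, against 48.8 and 52.9 CPM in other CD4 T cells. In cDC1, type 1 dendritic cells with only 42 and 14 cells, Itgae was at 242 and 81.0 CPM, so that class was the highest in library 1. The lowest were mast cells, at 0 in both libraries. A UMI of Itgae was held by 42.9% and 48.2% of regulatory T cells thinned to 3000 UMIs, and by 10.7% and 10.0% of the other CD4 T cells. Without thinning the shares were 58.9% and 66.5% against 14.0% and 14.4%. For Itgb8, whose chain is known for TGF-beta activation, regulatory T cells had 91.4 and 78.0 CPM and the other CD4 T cells 19.5 and 9.91. No other class exceeded 1.36 CPM of Itgb8, and pDC had 0 in both libraries. Itgav, its partner chain, had 247 and 322 CPM in regulatory T cells and was lowest in plasmacytoid dendritic cells (pDC), at 0 and 17.5 CPM. Itgb7 ranged from 398 and 491 CPM in regulatory T cells to 21.7 and 19.6 CPM in migratory dendritic cells.

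Compared with the other CD4 T cells, 8 of 12 members with at least 100 UMIs in each library's pair of classes were past 1.5-fold the same way in both libraries, where 10.4% of all 3555 such genes were. Here and in the class comparisons that follow, the minimum was on the sum of both classes, so a gene could pass it through the class where it is high, as Itgb8 did with 20 and 9 UMIs in the other CD4 T cells. The counts are therefore descriptions. The 5 higher ones were Itgae (4.33- and 4.98-fold), Itgb8 (4.58- and 7.49-fold), Itgav (2.19- and 3.69-fold), Itgb7 (1.63- and 1.58-fold) and Icam1 (1.81- and 1.77-fold). The 3 lower ones were Itgb1 (4.74- and 4.57-fold), Itga4 (3.58- and 3.79-fold) and Cd226 (3.499- and 3.35-fold). Regulatory T cells were the lowest of all classes for Itga4, at 36.5 and 36.1 CPM. With gate thresholds doubled 5 members were past that fold, and with cells thinned 3. The numbers tested and the shares over all genes there are not given, so these counts are not set against the 8 of 12. Markers of these cells were not absent from the other CD4 class: Ikzf2 was at 418 and 446 CPM there against 1673 and 1662 CPM, with Foxp3 at 0 by the gate. Epithelial markers (3 of 4 seen, Krt8 at 0) summed to 36.5 and 30.2 CPM in regulatory T cells. Nearly all of this came from Epcam, and over classes the sum ranged from 0 to 80.4 CPM. The erythroid marker Hbb-bs was at 242 CPM in library 1 and 2.21 CPM in library 2 of regulatory T cells. Every other class had 4.99 CPM of Hbb-bs or less. The part of these transcripts was not tested.

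Among CD8 T cells, the class with Pdcd1 and Havcr2, both genes of chronic stimulation, had another set. Of 11 members tested against naive or memory CD8 cells, 5 were past 1.5-fold in both libraries, beside 15.1% of all 4737 genes. Itgav was higher by 4.21- and 4.69-fold, from 38.9 and 35.8 CPM in naive or memory cells to 116 and 114 CPM in Pdcd1 cells without Havcr2 and 165 and 170 CPM in cells with both, and the intervals of the 3 classes did not overlap. Itgb7 went the other way, from 159 and 160 CPM through 57.7 and 92.5 to 29.5 and 41.1 CPM. Itgb2 was at 114 and 145 CPM in naive or memory cells and at 249.9 and 272 CPM in cells with Pdcd1 and Havcr2. Itga1, the alpha chain of a collagen receptor found on tissue-resident lymphocytes, was higher by 1.52-fold in library 1 and by 4.40-fold in library 2. Itgae was low in all of them, with 15.1 and 7.54 CPM in naive or memory cells and 5 and 11 UMIs in all in cells with both genes.

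Cd226, the activating receptor that competes with Tigit and Cd96 for Pvr and Nectin2, was highest in CD8 T cells with Pdcd1 but without Havcr2, at 179 and 181 CPM. A UMI was seen in 36.9% and 37.2% of these cells after thinning (62.4% and 59.5% before). Gamma-delta T cells were next for Cd226, at 108 and 177 CPM, which in library 2 was near the 181 CPM of that CD8 class. In regulatory T cells the level was 22.3 and 25.8 CPM and the thinned share 5.65% and 7.23%. Among cDC1 the level was 35.1 and 35.2 CPM. Levels were lowest in non-classical monocytes, at 0.854 and 0 CPM. Of the other receptors on this axis, Cd96 was at 108 and 107 CPM in the same CD8 class, Tigit was highest in regulatory T cells at 22.3 and 16.2 CPM, and the ligand gene Pvr was highest in migratory dendritic cells at 62.7 and 53.2 CPM.

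**Figure D2:**
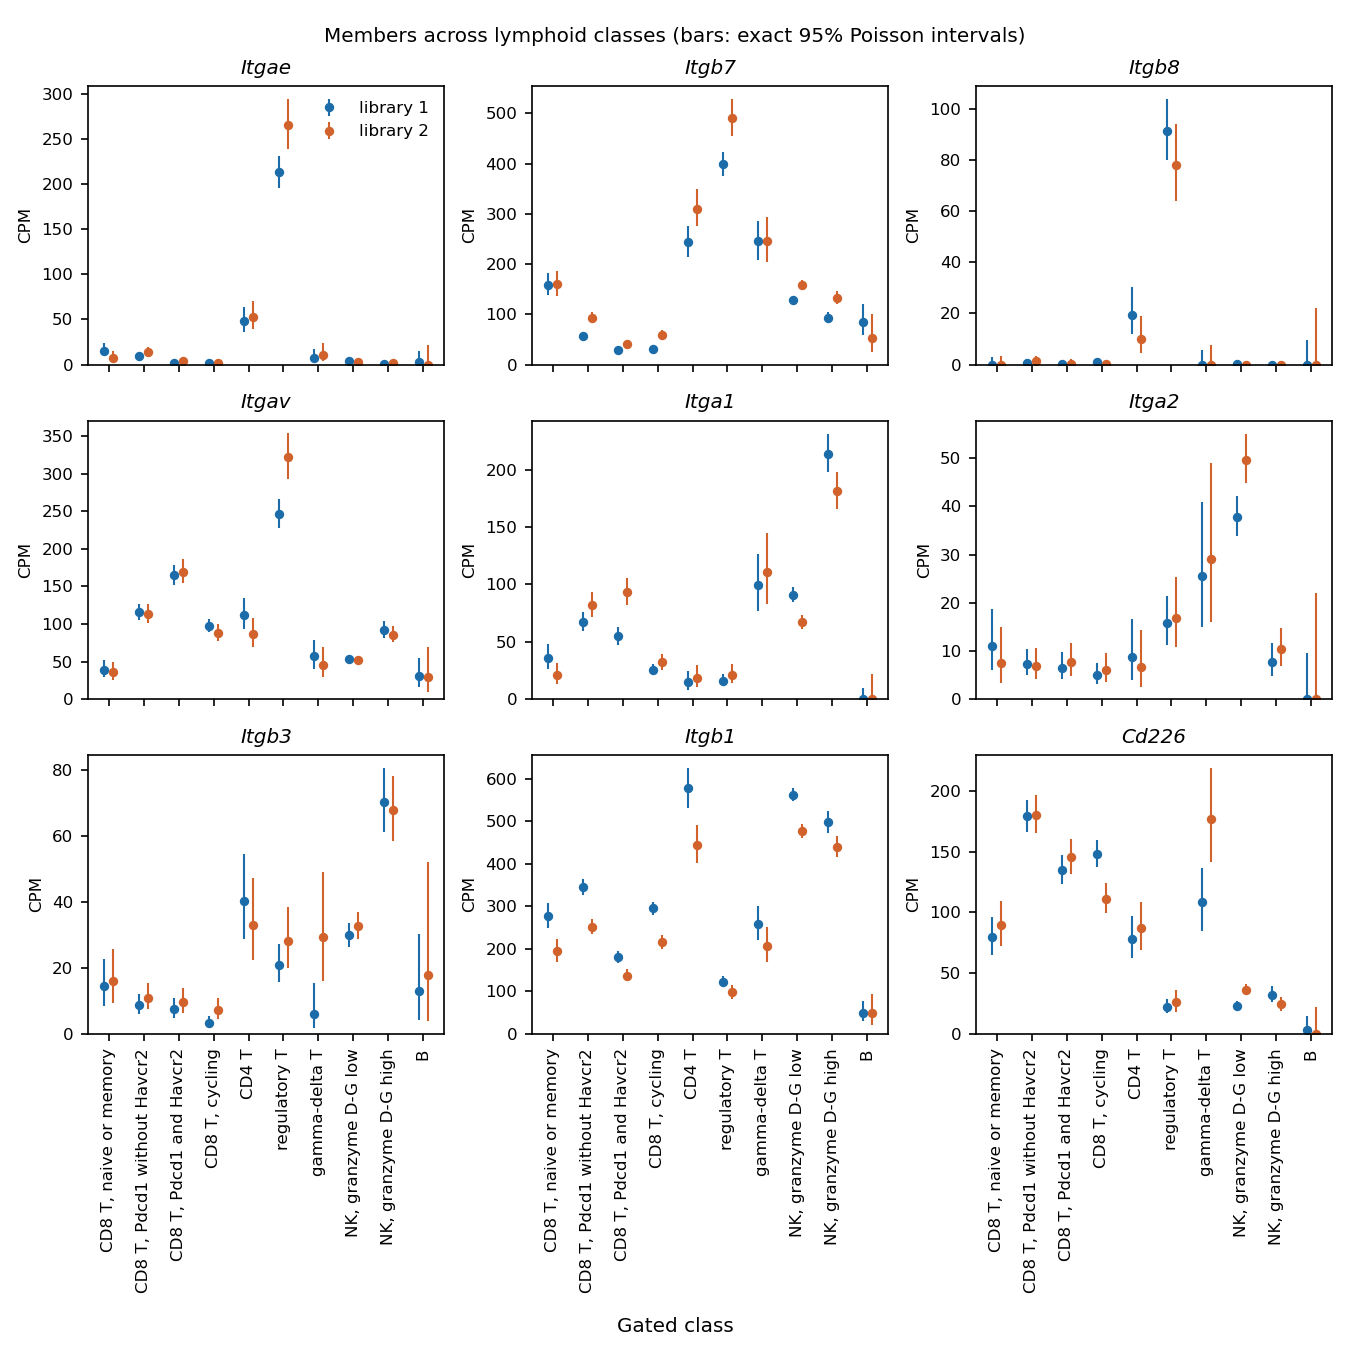
Levels in CPM (vertical axes from 0) of 9 members over 10 lymphoid classes, blue for library 1 and orange for library 2, with bars for exact 95% Poisson intervals. Itgae and Itgb8 peak in regulatory T cells, Itga1 and Itgb3 in NK cells with granzymes D to G, and Itga2 in the NK cells without them.

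The collagen receptor chains Itga1 and Itga2 had opposite levels in the NK classes. NK cells were divided by Gzmd, Gzme, Gzmf and Gzmg, with 178 and 180 cells high in these granzymes (median 15199.5 UMIs) and 905 and 838 low (median 8399 UMIs). Itga1 was highest of all classes in the granzyme-high cells, at 214 CPM (197.9 to 231.4) and 181 CPM (165.8 to 197.6), against 90.9 and 66.9 CPM in the low cells, and it was at 0 in B cells of both libraries. Itga2, which encodes CD49b, was at 37.9 and 49.7 CPM in granzyme-low cells, its highest class, and at 7.70 and 10.3 CPM in granzyme-high cells. It was at 0 in both libraries of 8 classes, pDC and B cells among them. After thinning, 40.7% and 36.3% of granzyme-high cells had a UMI of Itga1 alone and 1.13% and 3.35% of Itga2 alone. Among granzyme-low cells, 14.8% and 13.2% had Itga1 alone, 12.5% and 14.5% Itga2 alone, and 1.58% and 0.621% both. Most cells had neither at this depth, 58.2% to 71.7% over the 4 sets, so cells without a UMI are not shown to lack the transcript.

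Itgb3, a partner of alpha-v in the vitronectin and osteopontin receptor, was also highest in granzyme-high NK cells, at 70.3 and 67.7 CPM against 29.7 and 32.6 CPM in granzyme-low cells. It was at 0 in both libraries of migratory dendritic cells, cDC1 and Folr2 macrophages. Itgav was 1.71- and 1.66-fold higher in the granzyme-high cells. In all, 8 of 17 members tested were past 1.5-fold the same way in both libraries, beside 5.62% of all 7424 genes. The lower ones were Itga2 (4.82- and 4.76-fold), Itga4 (1.90- and 2.29-fold), Icam1 (1.77- and 2.40-fold), Icam2 (1.90- and 4.37-fold) and Itgam (1.503- and 3.25-fold). Spp1, the osteopontin gene on the ligand list, was at 5411 and 5312 CPM in granzyme-high and 1634 and 1625 CPM in granzyme-low NK cells.

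**Figure D3:**
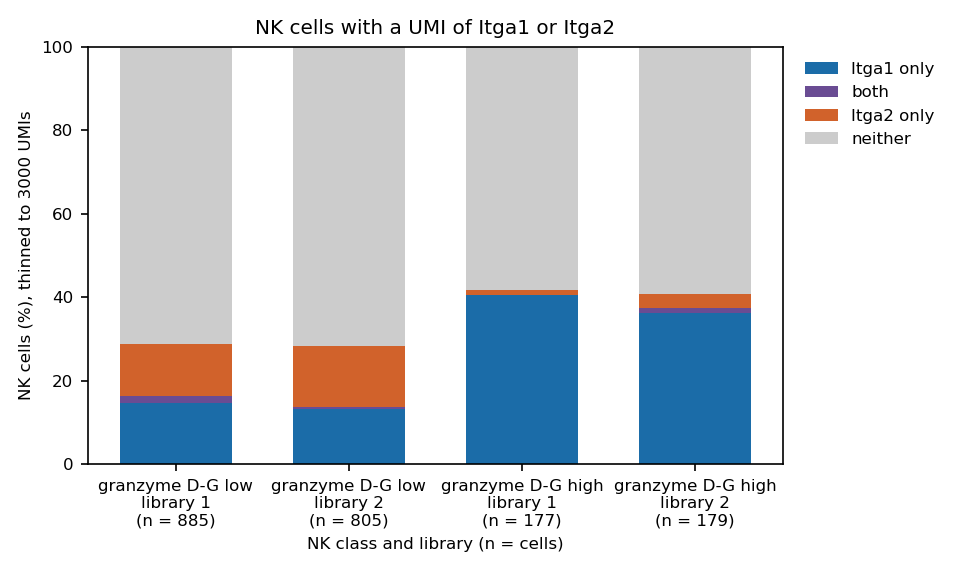
Stacked bars of the share of NK cells (%, thinned to 3000 UMIs) with a UMI of Itga1 only, Itga2 only, both or neither, for both NK classes in each library. Granzyme-high bars hold 40.7% and 36.3% of Itga1-only cells and few Itga2-only cells, while granzyme-low bars hold near equal shares of each.

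The beta-2 alpha chains lie close together on chromosome 7 (GENCODE M21, GRCm38) with Itgal at 127296260 to 127335138, Itgam at 128062640 to 128118491, Itgax at 128129547 to 128150657 and Itgad at 128154376 to 128223816, all on the plus strand. Itgal was highest in non-classical monocytes, at 479 and 516 CPM, with CD8 T cells carrying Pdcd1 and Havcr2 next at 220.4 and 276 CPM, and lowest in mast cells at 3.78 and 6.66 CPM. Itgam was a myeloid gene: Arg1 macrophages had 437 and 613 CPM, inflammatory monocytes 424 and 479 CPM, and cycling CD8 T cells 1.75 and 1.05 CPM. After thinning, 7.46% and 6.46% of granzyme-low NK cells (median 8399 UMIs) had a UMI of Itgam, against 0% and 0.694% of cycling CD8 T cells (median 18242.5 UMIs). Itgax had another order of classes than Itgam, though both were high in some macrophages. It was at 94.3 and 112 CPM in pDC, at 109.7 and 76.2 CPM in type 2 dendritic cells (cDC2) and at 87.1 and 78.5 CPM in granzyme-low NK cells. Cxcl9 macrophages had 116 and 50.5 CPM of Itgax (Itgam 264 and 375). C1q macrophages outside the Folr2, Arg1 and Cxcl9 groups had 105 and 79.7 CPM (Itgam 308 and 443). Itgax was at 0 in mast cells, and its leading classes overlapped between libraries. Alveolar macrophages, which carry CD11c, had no class here: of their 6 markers, 4 were at 0, Marco had 5 and 0 UMIs and Siglecf 55 and 69 UMIs over all barcodes.

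Itgad, at 0 in non-classical monocytes, reached 10 CPM only in pDC, at 16.4 CPM (4.47 to 42.0) and 24.5 CPM (9.84 to 50.4), from 4 and 7 UMIs in 24 and 26 cells. Its exons overlap those of Cox6a2 on the other strand, and Cox6a2 is one of the genes that gated pDC, with 171 and 240 UMIs there. The sources used here do not say whether counting used the strand, so reads of these genes cannot be told apart with certainty. The partner chain Itgb2 was broad, from 319 and 410 CPM in non-classical monocytes to 18.9 and 17.8 CPM in mast cells. Neutrophils, at 328 and 307 CPM, were its highest class in library 1. Exons of Itgam and Itga1 overlap other genes on the same strand, Gm49368 with 113 and 106 UMIs and Gm49395 with 5 and 4 over all barcodes.

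Macrophages were gated by C1q genes and divided by Folr2, Arg1 and Cxcl9. Vcam1, best known from inflamed endothelium as the ligand of alpha-4 beta-1, was highest in Folr2 macrophages (36 and 34 cells) at 298 CPM (257.0 to 343.0) and 254 CPM (213.5 to 298.8), against 46.7 and 66.2 CPM in C1q macrophages outside the 3 named groups. It was uneven between cells: 24 and 17 of the Folr2 macrophages had a UMI, and the highest cell held 15.2% and 19.7% of the UMIs. Endothelial markers (3 of 4 seen, Cldn5 at 0) had 0 and 2 UMIs in these cells. In granzyme-low NK cells Vcam1 was at 0.339 and 0 CPM, and in pDC at 0 in both libraries. Itga9, another VCAM-1 and tenascin receptor chain, was highest in Folr2 macrophages at 53.0 and 71.4 CPM, and at 0 in regulatory T cells. Arg1 macrophages were next for Itga9, at 50.4 and 34.9 CPM. Itga6, a laminin receptor chain, was also highest by its mean in Folr2 macrophages, at 71.7 and 53.6 CPM. The C1q macrophages outside the named groups overlapped with them, at 53.9 and 49.3 CPM. Itga6 was at 0 in non-classical monocytes and pDC.

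Of 15 members tested between Folr2 macrophages and the C1q macrophages outside the named groups, 5 were past 1.5-fold in both libraries, beside 7.02% of all 4044 genes. Vcam1 (6.38- and 3.83-fold) and Itga9 (1.73- and 2.13-fold) were higher, and Itgax (4.09- and 1.83-fold), Cd44 (2.27- and 2.00-fold) and Itgb7 (1.91- and 2.75-fold) lower. Only 1 member was past that fold in thinned cells, where fewer UMIs were left to test and no share over all genes is given. Itgb5, known with alpha-v for the uptake of dying cells, was highest in the C1q macrophages outside the named groups at 127 and 126 CPM and at 0 in pDC, B cells and naive or memory CD8 T cells, with Folr2 macrophages overlapping at 149.6 and 94.6 CPM. Itga5, the fibronectin receptor chain, was at 50.6 and 42.3 CPM in inflammatory monocytes and 51.1 and 34.4 CPM in classical monocytes, which overlap. Arg1 macrophages, at 33.6 and 46.5 CPM, were its highest class in library 2. In CD8 T cells with Pdcd1 and Havcr2, Itga5 was at 0.843 and 0.727 CPM. Fn1, the fibronectin gene, was highest in the classical monocytes, at 322 and 587 CPM, and the inflammatory monocytes, at 357 and 538 CPM.

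**Figure D4:**
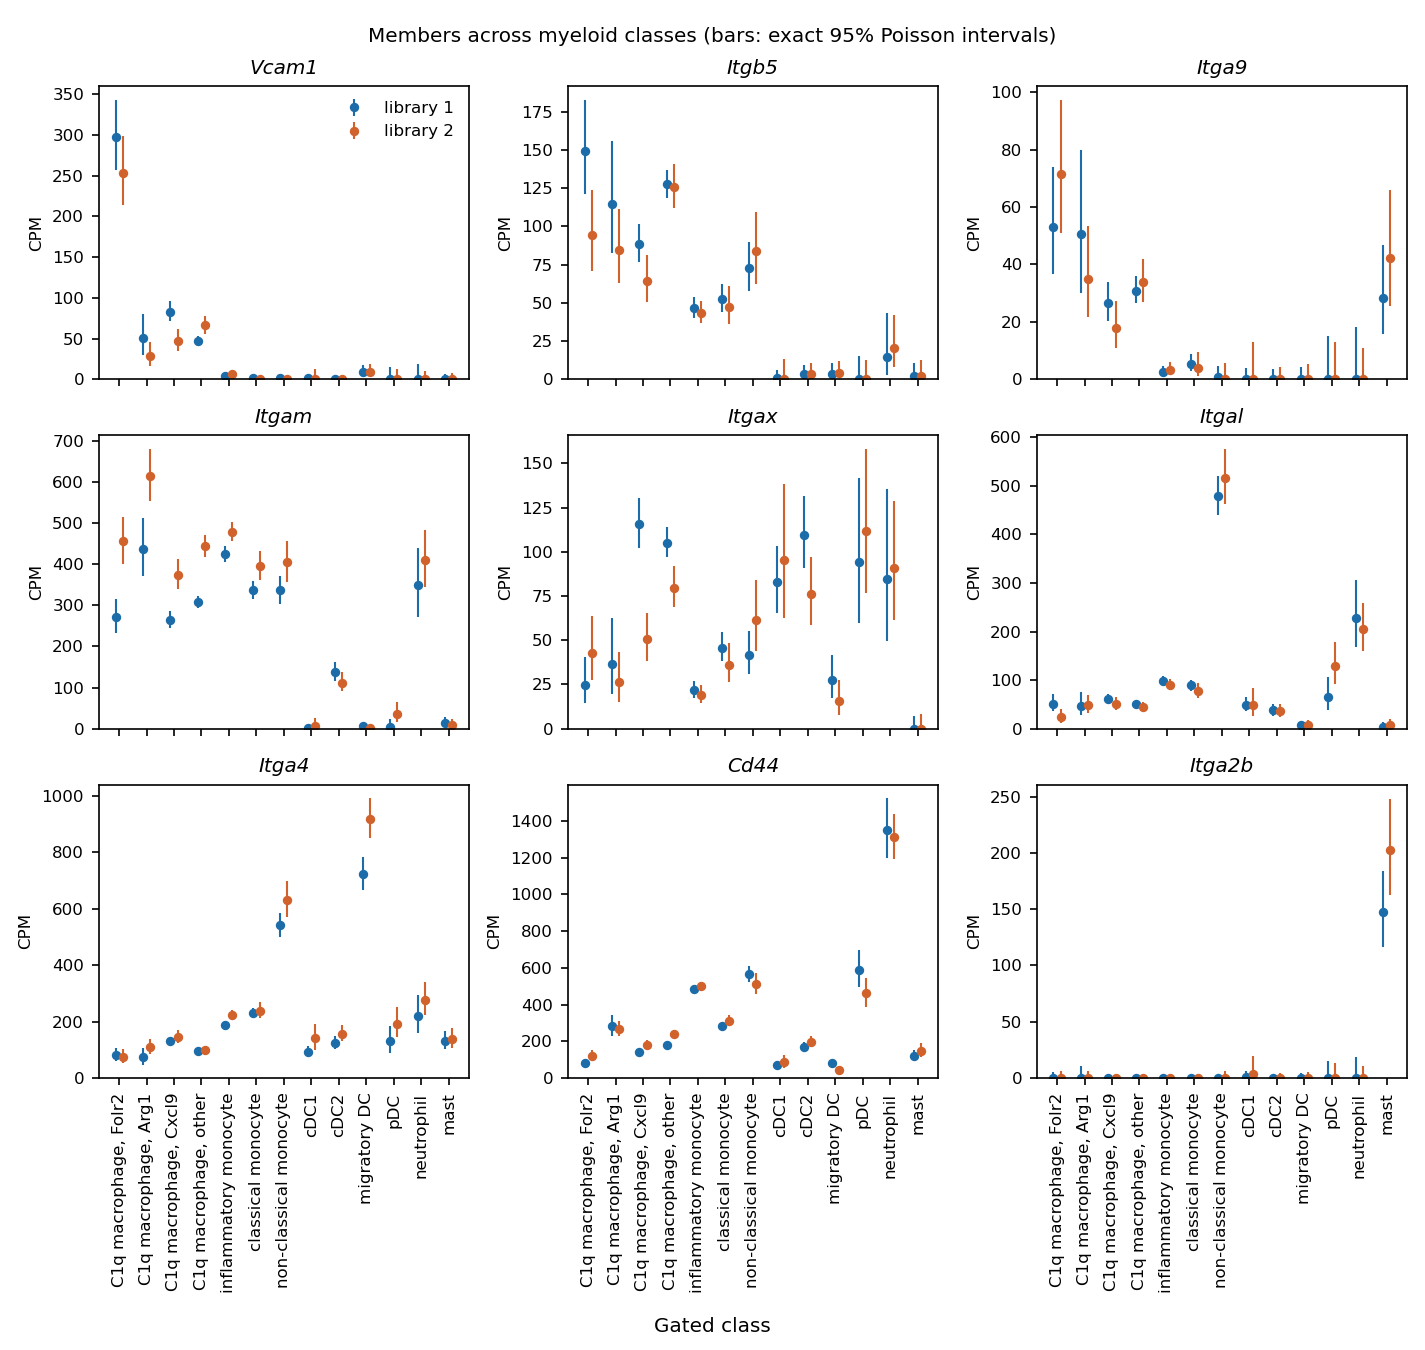
Levels in CPM (vertical axes from 0) of 9 members over 13 myeloid classes, blue for library 1 and orange for library 2, with bars for exact 95% Poisson intervals. Vcam1 peaks in Folr2 macrophages, Itga4 in migratory dendritic cells and non-classical monocytes, Cd44 in neutrophils and Itga2b in mast cells.

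Non-classical monocytes, which patrol vessel walls, and migratory dendritic cells, which carry antigen to lymph nodes, had the highest Itga4. Its level was 722 and 920 CPM in migratory dendritic cells and 542 and 633 CPM in non-classical monocytes, and B cells followed at 262 and 279 CPM. Against classical monocytes, 4 of 10 members were past 1.5-fold in both libraries of non-classical monocytes, beside 17.5% of all 2930 genes, all of them higher: Itgal (5.38- and 6.68-fold), Itga4 (2.37- and 2.65-fold), Itgb1 (2.30- and 2.12-fold) and Cd44 (2.00- and 1.65-fold). Against cDC2, 7 of 7 members tested were past 1.5-fold in migratory dendritic cells, but so were 49.5% of all 2249 genes (3 members in thinned cells, with no share over all genes given). Itga4 (5.77- and 5.84-fold), Itgb1, Icam1 and Selplg were higher, while Itgb7 (12.3- and 18.3-fold), Itgb2 (5.33- and 8.08-fold) and Cd44 were lower. Itgb1, the partner of the most alpha chains, was highest by its mean in granzyme-low NK cells at 563 and 477 CPM. CD4 T cells overlapped with them at 577 and 445 CPM, and migratory dendritic cells, at 421 and 508 CPM, were highest in library 2. The lowest level of Itgb1 was in B cells, at 49.3 and 47.6 CPM.

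Itga2b, the alpha chain of the platelet fibrinogen receptor, was found at 147 CPM (116.5 to 183.9) and 202 CPM (162.7 to 248.2) in mast cells, and at 3.52 CPM or less in every other class, with pDC at 0. A UMI was held by 36.4% and 46.6% of mast cells after thinning and by 51.3% and 69.0% before. Its partner Itgb3 had 1 and 0 UMIs in mast cells. Platelet markers, all 5 of which were seen in the matrix, summed to 2 and 1 UMIs in mast cells.

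Cell-to-cell ligands and selectin ligands had their own order. Icam1, the ligand of LFA-1, was highest in migratory dendritic cells at 236 and 190.5 CPM, overlapping with neutrophils at 194 and 173 CPM, and lowest in mast cells at 3.78 and 20.0 CPM. Icam2 was highest in B cells at 54.5 and 77.3 CPM and at 0 in both libraries of migratory dendritic cells. Pecam1, a homophilic receptor of endothelium and leukocytes, was highest in B cells at 117 and 125 CPM and lowest in neutrophils at 0 and 2.92 CPM. Selplg, the P-selectin ligand, ranged from 796 and 1010.3 CPM in pDC to 51.9 and 53.5 CPM in B cells. Cd44, the hyaluronan receptor, was at 1353 and 1313 CPM in neutrophils, above every other class, with non-classical monocytes next at 566 and 515 CPM and B cells last at 49.3 and 65.4 CPM. Neutrophils were shallow, with a median of 2577 and 2696.5 UMIs, against 7878 and 8840 in non-classical monocytes. CPM is a share of these UMIs. Neutrophils held 272 and 449 UMIs of Cd44 in 59 and 106 cells, and non-classical monocytes 663 and 326 in 135 and 67 cells. Per cell, neutrophils thus had no more UMIs of Cd44 than these monocytes, and their lead is one of CPM only.

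Partner chains were often seen in the same cell after thinning. A UMI of both Itgae and Itgb7 was held by 30.6% (92 of 301) and 38.6% (64 of 166) of regulatory T cells, and of both Itgav and Itgb8 by 14.6% and 10.8%. Among cells with Itgae, 71.3% and 80.0% had Itgb7, and among cells without it 70.3% and 62.8%, so in library 1 the shares were near each other. Itgal with Itgb2 was seen in 28.7% and 35.0% of CD8 T cells with Pdcd1 and Havcr2, and Itgam with Itgb2 in 25.5% and 36.8% of C1q macrophages outside the named groups. In these CD8 T cells, 58.6% and 60.7% of those with Itgal had Itgb2, against 49.4% and 44.9% of those without. In these macrophages, 47.7% and 51.8% of those with Itgam had Itgb2, against 40.5% and 53.6% of those without. Itga4 with Itgb1 reached 56.7% and 75.5% in migratory dendritic cells, the highest share among the 15 pairs looked at. Itgad with Itgb2 was seen in no thinned pDC, and in 16.7% and 19.2% of them before thinning.

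Between the libraries, members were compared in the 19 classes with at least 50 cells in each, over genes with at least 100 UMIs. Of 209 pairs of a member and a class, 14 were past 1.5-fold (11 higher and 3 lower in library 2), or 6.70%, where the share over all genes was 5.43%. The median log2 ratio over all genes was between 0.01 and 0.08 in these classes. C1qa, a macrophage gene, was at 43.2 and 12.97 CPM in granzyme-low NK cells, so the level of stray macrophage transcripts also differed, and its part in the ratios was not tested. No member was past 1.5-fold in CD4 T cells (10 tested, 6.5% of all genes past), regulatory T cells (13 tested, 5.63%), granzyme-high NK cells (14 tested, 3.21%) or B cells (1 tested, 7.81%). The same held for C1q macrophages outside the named groups (18 tested, 5.42%), classical monocytes (14 tested, 4.03%), cDC2 (9 tested, 6.86%), neutrophils (6 tested, 20.8%) and mast cells (5 tested, 7.46%).

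In CD8 T cells with Pdcd1 and Havcr2, 1 of 11 members was past 1.5-fold, beside 5.14% of all genes: Itga1 at 54.8 and 93.1 CPM (log2 ratio of library 2 over library 1 0.76, interval 0.49 to 1.04), or 0.52 with no limit on macrophage UMIs in the gates. Without Havcr2 they were 2 of 13, beside 4.38%: Itgb7 (0.68) and Itga6 (0.64, or 0.29 without that limit). In naive or memory CD8 cells it was 1 of 10, beside 4.8%, Cd44 (0.71, or 0.55 without it), and in cycling CD8 cells 2 of 12, beside 4.07%, Itgb7 (0.91) and Pecam1 (0.69, or 0.47 without it). Cd226 was the 1 member of 10 in gamma-delta T cells (0.71, beside 4.85%) and the 1 of 19 in granzyme-low NK cells (0.65, beside 3.33%). These shares were near or above those of all genes, on few members.

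Cxcl9 macrophages had the most, with 3 of 13 members past 1.5-fold beside 10.6% of all genes. Itgax was at 116 and 50.5 CPM (log2 ratio -1.19, interval -1.63 to -0.78), Vcam1 at 83.1 and 46.9 CPM (-0.82, -1.29 to -0.38) and Itgb7 at 49.8 and 119 CPM (1.25, 0.88 to 1.62). Vcam1 rested on few cells, 35 and 12, and 22.6% of its UMIs in library 2 came from 1 cell. Inflammatory monocytes had 1 of 15, Itga1 (0.61, or 0.56 with the median scaling, beside 5.27%), non-classical monocytes 1 of 11, Icam1 (0.63, beside 6.45%), and migratory dendritic cells 1 of 5, Cd44 (-0.93, beside 9.84%). The Itgae level of cDC1, too few for this comparison, came from 33 and 6 cells with a UMI.

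Small differences ran the same way over many classes for some members. Itgb7 was higher in library 2 in all 16 classes tested, by log2 ratios of 0.01 to 1.25 with a median of 0.34, and the interval lay above 0 in 12. With each class scaled by the median ratio of its genes, Itgb7 was higher in 14 of them and turned lower in gamma-delta and in naive or memory CD8 T cells. Itgax was lower in library 2 in all 7 of its classes, by -0.07 to -1.19, and the interval lay below 0 in 3. These were 2 of the 14 members tested in at least 7 classes, and 4.72% of the 5491 such genes had one direction throughout. Of 1346 genes tested in at least 16 classes, 26 were higher and 68 lower in library 2 in every class. Selplg was higher in 16 of 17 classes (median 0.22, and 15 with that scaling) and Itga4 in 17 of 19 (median 0.17). The interval lay above 0 in 11 classes for Selplg and in 6 for Itga4. Itgb1 was lower in 14 of 17 (median -0.24): in all 9 T and NK classes the ratio was between -0.51 and -0.18, while in myeloid classes it ran from -0.27 to 0.27. Its interval lay below 0 in 8 classes and above 0 in 1. No share over all genes stands beside the counts of Selplg, Itga4 and Itgb1, so they describe these members only. Classes of 1 library share its preparation, so they are not independent.

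**Figure D5:**
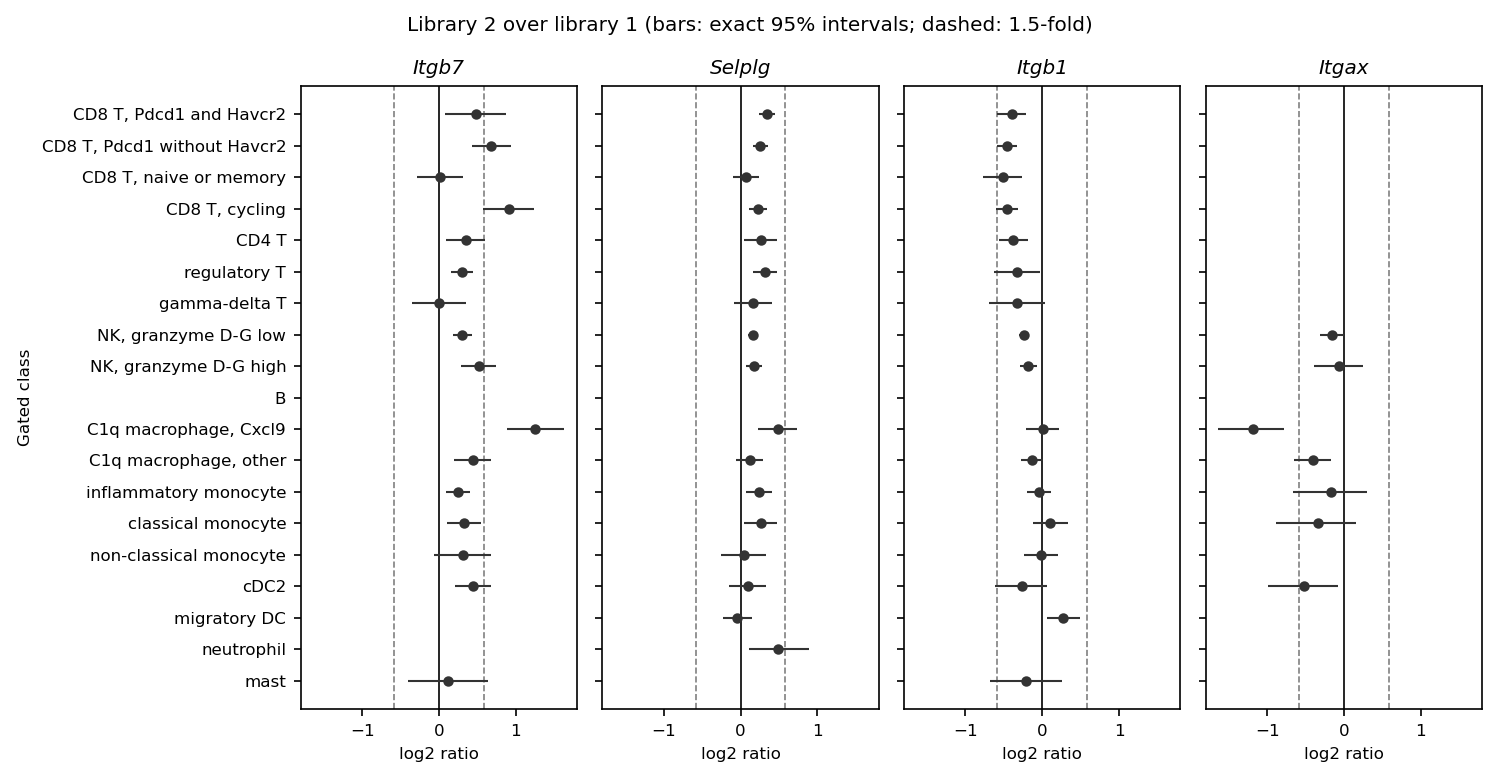
Log2 ratio of library 2 over library 1 (horizontal axes) of Itgb7, Selplg, Itgb1 and Itgax by gated class, with exact 95% intervals for counting error and dashed lines at 1.5-fold. All Itgb7 points lie right of 0, though 2 of the 16 turn when scaled by the median ratio, and all Itgax points left of it, and Itgb1 points lie left of 0 in the T and NK classes.

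Other genes of the pathway were looked at as lists. Of 27 genes for integrin activation and adaptors, such as talin (Tln1) and kindlin-3 (Fermt3), 23 reached 10 CPM in both libraries of a class. Of their 291 gene and class pairs, 5 were higher and 1 lower past 1.5-fold in library 2, to be read, like the counts of the other lists, beside the 5.43% of all gene and class pairs past that fold. Fermt3 was the lower one, at 151 and 91.1 CPM in mast cells, and Rasgrp2 in granzyme-low NK cells, at 9.61 and 15.3 CPM, was among the higher. Skap1, an adaptor of T and NK cells, was highest in gamma-delta T cells at 489 and 527 CPM. Of 23 ligands and partners 13 reached that level, and 5 of 69 pairs were higher and 6 lower, with genes used for gating left out. Of the 6 lower pairs 5 were Spp1, in CD4, regulatory and gamma-delta T cells, C1q macrophages outside the named groups and inflammatory monocytes, where 1 cell held 7.74% to 42.2% of its UMIs in library 1, the higher library, and 12.2% to 68.6% in library 2. The share in library 1 was highest in CD4 T cells. Fn1 was higher in library 2 in classical monocytes (0.87), inflammatory monocytes (0.59) and cDC2 (0.95). All 8 selectin ligand enzymes reached it, with 2 of 59 pairs higher and 1 lower, Fut7 in CD8 T cells with Pdcd1 and Havcr2 at 22.5 and 14.5 CPM. Fut7 was highest in regulatory T cells at 44.6 and 50.03 CPM. All 7 tetraspanins reached it, with 7 of 84 pairs higher and 6 lower. In Cxcl9 macrophages Cd63 and Cd81 were lower in library 2 (-0.94 and -1.07), while Cd9 was higher (0.73).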

How the data were processed

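Per the file headers, the deposited matrix holds raw whole-number UMI counts for each gene in each cell barcode, and the submitters' processing notes name Cell Ranger 6.1.2 and build mm10. Alignment settings, strand use and annotation are not given in the sources used here. Members and lists were chosen with earlier results of these data known, and gate thresholds and the 6 class contrasts were set after the data were seen, the thresholds from marker genes alone. Near the T cell gate, 399 cells lay 1 UMI below it and 156 at it. No doublet caller was run, and barcodes with markers of 2 lineages were left out. Counts were summed per class and library. Ratios used a pseudocount of 0.5 UMI and at least 100 UMIs. Intervals are Poisson for sums, Clopper-Pearson for shares and conditional binomial for ratios, at 95%. With 1 library of each kind no test was run. For shares, each cell was thinned to 3000 UMIs, which 567 and 456 cells did not reach. The rule for named genes asked for the highest and lowest class of every member at 10 CPM or more, UMI totals for the others, and every member past 1.5-fold between libraries. Type 17 T cells, 16 and 9, were too few for a class. Python 3.11.15 with scipy 1.17.1 was used, and the calculation of ratios was tested on simulated counts. Gene IDs matched GENCODE M21 with their version for 30 of 31 members, Itga6 not among them.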

Additional observations from a re-analysis of the deposited data

Results flagged for a closer look

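Cd44 was past 1.5-fold in opposite directions in a pair of classes. In naive or memory CD8 T cells library 2 was higher, at a log2 ratio of 0.713 (interval 0.27 to 1.17, from 73 and 101 UMIs), and in migratory dendritic cells lower, at -0.925 (interval -1.60 to -0.31, from 69 and 31 UMIs). In migratory dendritic cells 19 and 16 cells had a UMI of Cd44, and the highest held 23.2% and 16.1% of the UMIs. The difference between the classes was not tested.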

How the results depend on the processing

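Of the 14 pairs of a member and a class past 1.5-fold between the libraries, none changed direction under any alternative that left them enough UMIs. The pairs tested and the shares over all genes under the alternatives are not given here. The counts below are therefore not set against the share over all genes in the main setting. With cells thinned to 3000 UMIs, 3 of the 14 stayed past the fold. Itga1 in CD8 T cells with Pdcd1 and Havcr2 fell just below it (0.583). The rest of the 14 gave no value there, with too few UMIs left. The number of pairs past the fold was 7 with cells thinned, 24 with a minimum of 50 UMIs (14 among them) and 2 at a fold of 2. It was 19 with gate thresholds doubled, with only 9 of the 14 among them, the other 5 giving no value there, with too few cells or UMIs. It was 17 with no limit on macrophage UMIs in lymphoid gates, with only 10 of the 14 among them: below the fold fell Itga1 in CD8 T cells with Pdcd1 and Havcr2 (0.52), Itga6 in those without Havcr2 (0.29), Cd44 in naive or memory CD8 T cells (0.55) and Pecam1 in cycling CD8 T cells (0.47). With the median scaling it was 14 with 13 shared, Itga1 in inflammatory monocytes (0.56) falling below, and 14 or 15 with all 14 shared under the stricter cell filter and a pseudocount of 1. The members past 1.5-fold in regulatory over other CD4 T cells were 5 with gate thresholds doubled and 3 with cells thinned, those in Folr2 over other C1q macrophages 1 with cells thinned, and those in migratory dendritic cells over cDC2 3 with cells thinned, where fewer UMIs leave fewer genes to test. No numbers tested or shares over all genes are given for these counts. Without thinning, Itgae with Itgb7 was seen in 53.2% and 60.0% of regulatory T cells, Itgav with Itgb8 in 27.5% and 22.7% of them, Itgal with Itgb2 in 77.3% and 73.9% of CD8 T cells with Pdcd1 and Havcr2, and Itgam with Itgb2 in 74.4% and 83.4% of C1q macrophages outside the named groups. The number of members at 10 CPM stayed at 25 or 26 under each alternative. No paired analysis was possible because each group has 1 library and no label ties a library to a group.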

Other observations

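For several ligand and tetraspanin genes that differed between the libraries, 1 cell held a large share of the UMIs of a class; the ratios without that cell were not computed. These genes were chosen after their values were seen. Cd63 in cycling CD8 T cells was at 4.36 and 78.0 CPM, and 1 cell held 76.1% of its 222 UMIs in library 2. In the same class 55.4% of the UMIs of Cd9 and 51.2% of those of Cd81 in library 2 came from 1 cell, and Vcam1 had 2 and 28 UMIs, of which 1 cell held 60.7% in library 2. Spp1 in non-classical monocytes was at 34.2 and 341 CPM, and 1 cell held 95.8% of its 216 UMIs in library 2. Fn1 in cDC2 had 62.1% of its UMIs in library 2 in 1 cell. For the 14 pairs of a member and a class past 1.5-fold, the highest cell held between 2.45% and 23.2% of the UMIs of the gene in its class and library.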
